A study of Mus musculus with 158 samples.

Results

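The liver of F1 hybrid mice was profiled by DNase-seq, which finds the stretches of chromatin that DNase I can cut and that proteins bound to DNA keep open. Liver made up 5 of the 20 adult hotspot sets of the study, 1 for each hybrid, and the other 15 were 5 sets each of kidney, lung and B cells. A hotspot is a stretch with more cuts than its surroundings, called at a false discovery rate (FDR) of 5%. Hotspots of the 20 sets on the autosomes were merged wherever they overlapped by at least 1 bp, which gave 714403 sites. A site was liver-only when all 5 liver sets and none of the other 15 had a hotspot in it, and this held for 21898 sites, 3.07% of the whole. A site was liver-lacking when all 15 other sets and no liver set had one, and this held for 163 sites, or 0.0228%. Both classes were defined by the hotspots themselves, so their sizes are descriptions and carry no test.

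The mother of each hybrid was C57BL/6J, the reference strain, and the name of a hybrid gives the father's strain after the x. B6xSPRET had a SPRET/EiJ father, B6xPWK a PWK/PhJ father and B6xCAST a CAST/EiJ father, all of wild-derived strains. B6xC3H had a C3H/HeJ father, and the father of B6x129 is named here only as in that label. Every set shares 1 of its 2 genomes with all others. Liver, kidney and lung were taken as whole organs pooled from several mice. B cells came from the femoral marrow of 8-week-old females and were enriched by removing cells with CD43 or Mac-1, so they were a purified cell population set against 3 mixed tissues. In a whole tissue, an opening in few cells and a weak opening in many cells cannot be told apart. The labels list 43 liver, 37 kidney, 28 lung and 30 B cell libraries, and the libraries of a hybrid and tissue were pooled before hotspots were called. The 5 hybrids therefore serve as the repeats, and differences between strains are part of the spread between them.

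Hepatocytes, the main cells of the liver, make most plasma proteins, build lipoproteins and bile acids, detoxify compounds and dispose of nitrogen through the urea cycle. Their identity is kept by a network of transcription factors that includes HNF4A, the FOXA factors, C/EBP factors and nuclear receptors, which bind at enhancers and promoters and hold them open. The organ also holds Kupffer cells, sinusoidal endothelium, stellate cells and bile duct cells, whose chromatin is part of a whole-liver sample.

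The liver sets held 286482 (B6x129), 208852 (B6xC3H), 226868 (B6xCAST), 235351 (B6xPWK) and 205195 (B6xSPRET) autosomal hotspots. Kidney sets held 181072 to 232440, lung sets 147871 to 273104 and B cell sets 76055 to 151020. Liver sets covered 76.5 to 125.7 Mb, kidney sets 62.1 to 83.1, lung sets 42.75 to 94.5 and B cell sets 28.2 to 66.9. The B6x129 liver set covered the most of all 20. The hotspot files give no number of reads, and the read totals that the study states for each set were not used here, so the part of depth in these numbers was not tested. Because the B6x129 liver set stood apart, the main counts were also made without it. That gave 25584 liver-only and 371 liver-lacking sites over the other 4 hybrids.

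The sequences of 10 openings are given next. Those at Alb (serum albumin), Hnf4a (the nuclear receptor HNF4A) and Apoa1 (apolipoprotein A-I) are from markers of the tissue, and those near Cyp2c39, Kit and Abcg8 are from sites at the ceiling of the score in all 5 liver sets. They were picked from 28 windows read, and most were picked to show motif matches. Each is up to 300 bases around the centre of a liver-only site, read 5′ to 3′ on the plus strand of mm10. Capitals mark matches, on either strand, to the letters CAAAGTCCA (HNF4), TGTTTAC (FOXA), TTGCNNAA (C/EBP), AGGTCAAAG (DR1, a direct repeat bound by nuclear receptors such as PPARA with RXRA) and TAGGTCA (ROR and REV-ERB receptors). The HNF4 and DR1 letters overlap where both occur in 1 stretch, as do those of DR1 and ROR, and a match is a description of the letters and not of a bound protein.
Alb, upstream (chr5:90457253-90457552): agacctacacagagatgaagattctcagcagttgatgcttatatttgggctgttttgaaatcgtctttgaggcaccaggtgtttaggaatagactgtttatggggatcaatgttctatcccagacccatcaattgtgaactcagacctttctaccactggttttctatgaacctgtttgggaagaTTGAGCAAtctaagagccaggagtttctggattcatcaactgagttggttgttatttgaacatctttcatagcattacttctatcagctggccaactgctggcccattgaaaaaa
Alb, towards Afp (chr5:90484018-90484317): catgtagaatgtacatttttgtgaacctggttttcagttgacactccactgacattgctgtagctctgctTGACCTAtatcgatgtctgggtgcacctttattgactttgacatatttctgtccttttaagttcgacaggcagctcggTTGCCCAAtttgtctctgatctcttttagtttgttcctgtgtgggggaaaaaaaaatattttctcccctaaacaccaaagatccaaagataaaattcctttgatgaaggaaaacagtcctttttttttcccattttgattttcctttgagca
Alb, nearer Afp (chr5:90485764-90486063): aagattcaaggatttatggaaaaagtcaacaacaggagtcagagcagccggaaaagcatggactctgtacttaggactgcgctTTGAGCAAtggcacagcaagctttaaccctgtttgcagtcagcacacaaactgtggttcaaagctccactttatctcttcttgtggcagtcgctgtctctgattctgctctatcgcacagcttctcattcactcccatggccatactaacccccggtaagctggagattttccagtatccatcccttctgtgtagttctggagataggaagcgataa
Hnf4a, before the start (chr2:163506713-163506807): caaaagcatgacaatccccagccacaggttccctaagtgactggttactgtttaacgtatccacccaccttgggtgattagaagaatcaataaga
Hnf4a, intron (chr2:163510925-163511224): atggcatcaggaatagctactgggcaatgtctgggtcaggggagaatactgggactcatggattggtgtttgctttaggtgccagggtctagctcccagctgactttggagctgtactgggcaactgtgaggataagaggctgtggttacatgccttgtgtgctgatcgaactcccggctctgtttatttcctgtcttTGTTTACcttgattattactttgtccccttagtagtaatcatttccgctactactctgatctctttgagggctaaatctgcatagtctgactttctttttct
Hnf4a, downstream (chr2:163582674-163582973): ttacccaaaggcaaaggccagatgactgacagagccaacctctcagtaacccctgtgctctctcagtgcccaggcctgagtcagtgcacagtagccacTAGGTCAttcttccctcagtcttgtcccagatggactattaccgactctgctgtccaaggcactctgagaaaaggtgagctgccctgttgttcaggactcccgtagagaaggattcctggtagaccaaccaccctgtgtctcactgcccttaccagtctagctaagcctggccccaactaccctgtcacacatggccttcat
Apoa1, downstream (chr9:46238844-46239143): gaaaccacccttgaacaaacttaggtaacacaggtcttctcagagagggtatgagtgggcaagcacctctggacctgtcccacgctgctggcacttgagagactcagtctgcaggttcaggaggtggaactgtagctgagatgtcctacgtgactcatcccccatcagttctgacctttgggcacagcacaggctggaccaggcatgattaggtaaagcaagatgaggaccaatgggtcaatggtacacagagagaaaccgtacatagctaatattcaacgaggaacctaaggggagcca
Cyp2c39, start (chr19:39510058-39510357): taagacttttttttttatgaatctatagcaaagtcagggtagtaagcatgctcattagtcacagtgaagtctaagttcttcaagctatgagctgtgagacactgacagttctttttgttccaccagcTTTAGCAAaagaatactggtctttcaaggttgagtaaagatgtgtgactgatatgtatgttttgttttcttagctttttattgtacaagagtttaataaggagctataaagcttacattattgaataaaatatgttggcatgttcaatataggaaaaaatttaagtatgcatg
Kit, distal (chr5:75745344-75745643): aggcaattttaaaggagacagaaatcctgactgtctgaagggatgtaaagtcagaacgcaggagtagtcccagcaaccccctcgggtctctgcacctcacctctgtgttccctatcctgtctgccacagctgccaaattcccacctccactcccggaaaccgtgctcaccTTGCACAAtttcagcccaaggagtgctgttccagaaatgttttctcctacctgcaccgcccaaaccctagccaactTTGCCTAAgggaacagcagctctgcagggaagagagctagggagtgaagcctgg
Abcg8, start (chr17:84683012-84683120): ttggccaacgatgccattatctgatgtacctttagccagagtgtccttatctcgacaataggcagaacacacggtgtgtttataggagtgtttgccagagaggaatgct

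The 3 Alb windows each held a C/EBP match, and the window towards Afp held a ROR match as well. Of the other windows printed, the Hnf4a intron held a FOXA match, the downstream Hnf4a window a ROR match, Cyp2c39 a C/EBP match and the distal Kit window 2 C/EBP matches. The Apoa1 window, the 95 bases before the Hnf4a start and the 109 bases at the Abcg8 start held none of the 5. Of the 28 windows read, 7 held a match and all 7 are printed. The 21 without one include all 9 windows of Serpina1a, 5 of the 7 of Hnf4a and 6 of the 8 read from the named ceiling sites. In their central 300 bases, 8.65% of the 21898 liver-only sites had FOXA letters, against 5.60% of all 714403 sites and 3.45% of the sites open in all 20 sets.

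Sites found in liver and in no other tissue were most often seen in 1 hybrid or in all 5. Of 152907 such sites, 94204 were in 1 liver set, 17972 in 2, 10372 in 3, 8461 in 4 and 21898 in all 5. The same ladder ended at 14481 sites for kidney, 10744 for lung and 2433 for B cells. Of the 117346 sites that had a hotspot in all 5 liver sets, 18.7% were liver-only, while the share was 12.5% for kidney, 12.1% for lung and 5.0% for B cells. The sets of a tissue differ in number of hotspots, and a tissue with fewer hotspots has fewer chances of a site in all 5. With each set held to its 75000 highest-scoring hotspots, liver-only sites numbered 12152.

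**Figure D1:**
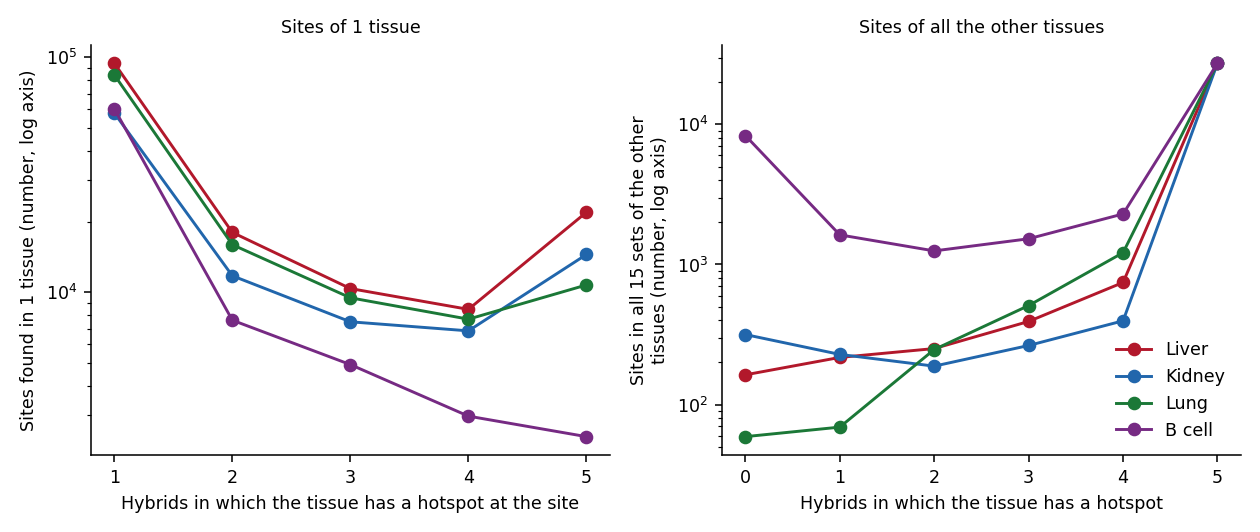
Left, number of merged sites (log axis) with a hotspot in 1 to 5 hybrids of a tissue and in no set of the other tissues. Right, number of sites (log axis) open in all 15 sets of the other tissues by how many hybrids of the tissue itself were open; the liver line falls from 94204 to 8461 and ends at 21898 on the left, and rises from 163 to 27339 on the right.

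B6x129 and B6xSPRET stood at the ends of the liver sets. Sites open in the other 4 livers and no other tissue that were missing in 1 hybrid alone numbered 317 for B6x129, 599 for B6xPWK, 1234 for B6xCAST, 2766 for B6xC3H and 3545 for B6xSPRET. Sites open in the liver of 1 hybrid and nowhere else numbered 35247 for B6x129 and 12093 to 17055 for the others. These sites were narrow, with a median width of 116 bp, against 424 bp for the liver-only sites.

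The choice of sites was tried on the hybrid that it did not use. Sites were taken that had a hotspot in the liver of 4 hybrids and in none of their 12 other sets, and the fifth hybrid was then read. Its liver had a hotspot at 98.7% (B6x129), 89.2% (B6xC3H), 94.9% (B6xCAST), 97.4% (B6xPWK) and 86.3% (B6xSPRET) of them, a mean of 93.3% ± 5.36 (SD, n = 5). Kidney of the same hybrid had one at 1.12 to 4.56%, lung at 0.493 to 5.37% and B cells at 0.167 to 1.66%. The liver share was above those of the other tissues in each of the 5 hybrids.

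The sites that liver lacked were less stable. Chosen on 4 hybrids, they were found in the liver of the fifth at 4.26% (B6xC3H), 2.35% (B6xCAST), 6.81% (B6xPWK) and 3.48% (B6xSPRET), but at 55.0% in B6x129, the liver set with the most hotspots. The other tissues of the fifth hybrid had a hotspot at 73.4 to 100% of them.

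**Figure D2:**
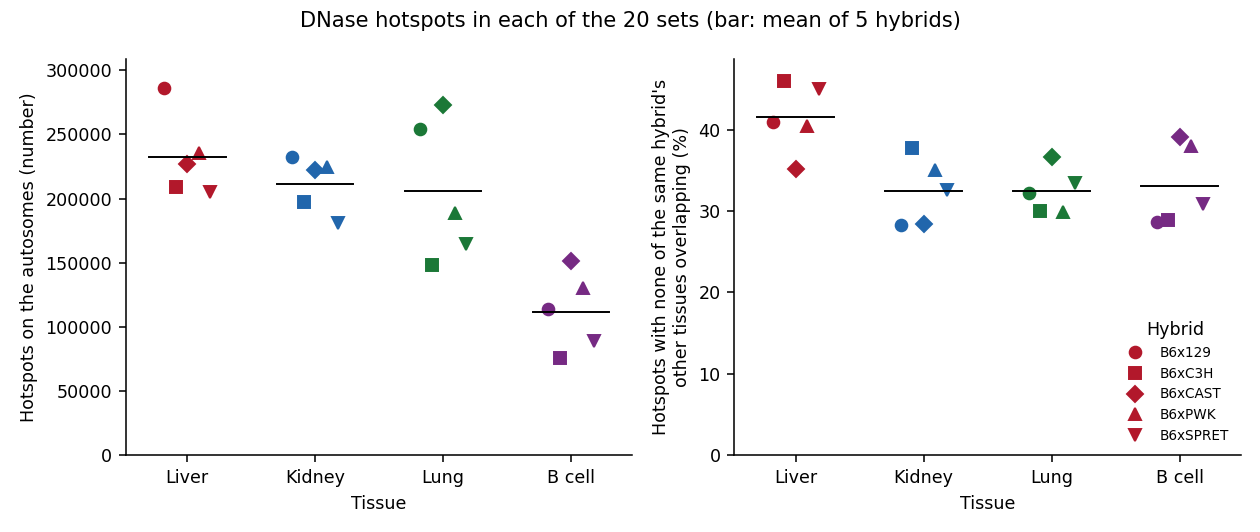
Hotspots of each of the 20 sets, as their number on the autosomes (left) and as the percentage that overlaps no hotspot of the other tissues of the same hybrid (right), with 1 point per hybrid and a bar at the mean of 5. The B6x129 liver set has the most hotspots, 286482, and the liver share runs from 35.1 to 45.9%.

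Within a hybrid, the share of hotspots that overlapped none of the other 3 tissues was 41.5% ± 4.29 in liver (SD, n = 5). The shares were 32.4% ± 4.17 for kidney, 32.4% ± 2.76 for lung and 33.1% ± 5.05 for B cells. These tissue-only hotspots, defined in each hybrid on its own, were used to compare the position and sequence of liver openings with those of the other tissues. Tests permuted the tissue labels within hybrids in every possible way, two-sided, and adjusted p over the 5 measures of position by Benjamini-Hochberg. The smallest p this allows is 0.000977. The sets of a tissue share many of their sites, so they are not fully independent repeats.

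Most liver-only sites, like most of all sites, lay away from starts, in introns or between genes. Of the 21898 liver-only sites, 587 (2.68%) were within 1 kb of an annotated transcription start, 1096 (5.01%) in an exon, 11079 (50.6%) in an intron and 9136 (41.7%) between genes, by the GENCODE vM21 annotation. Over all 714403 sites these shares were 5.05%, 4.36%, 41.9% and 48.7%. Of kidney-only sites, 2.64% were near a start. The median distance to the nearest start was 25870 bp for liver-only sites and 25350 bp for B cell-only sites. Those of kidney-only (39360 bp), lung-only (35180 bp) and all sites (36380 bp) were larger. The 27339 sites open in all 20 sets had a median of 5997 bp, and 39.1% of them were within 1 kb of a start. On tissue-only hotspots, 54.9% ± 0.655 of those of liver lay in genes (SD, n = 5), against 51.5% over the other sets, and the 5 liver sets were above all 15 (exact permutation p = 0.000977, adjusted p = 0.00244). With the 10000 highest-scoring tissue-only hotspots of each set the difference was gone, at -0.00467 percentage points with an adjusted p of 0.999. The share near starts was 3.92% ± 0.605 in liver and 4.53% in the others, and GC content was 45.1% and 45.8%. Neither difference passed the exact permutation test (adjusted p = 0.383 for both).

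Embryonic stem cells of the B6xCAST hybrid (mESC) gave an opening that the choice of sites had not used. The mESC DNase-seq set had a hotspot in 518 of the liver-only sites, or 2.37% (Wilson 95% interval 2.17 to 2.58%, counting error only). It had one in 4.41% of kidney-only, 4.11% of lung-only and 3.33% of B cell-only sites. Of all sites 9.47% had one, and of the sites open in all 20 sets 89.0%. Over tissue-only hotspots the mESC share was 3.46% ± 0.721 in liver and 5.21% in the other sets (exact permutation p = 0.000977, adjusted p = 0.00244), and the difference stayed past the threshold in the 7 alternatives that could change it. By tissue the means were 5.87% for kidney, 4.92% for lung and 4.84% for B cells. The liver values ran from 2.43 to 4.47% and overlapped those of the other tissues, since B cell sets began at 3.59%. CTCF, the insulator protein mapped by ChIP-seq in the same stem cells, had a hotspot in 429 liver-only sites, or 1.96%. It had one in 1.65% of kidney-only, 1.31% of lung-only, 2.22% of B cell-only and 7.95% of all sites. Its share of tissue-only hotspots was 3.90% ± 1.42 in liver and 3.78% in the others (exact permutation, adjusted p = 0.913).

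Each hotspot carries a score, the −log10 of its FDR, which stops at 100. The median score of the liver-only sites was 10.5 in B6xC3H and 10.6 in B6xSPRET, the lowest, and 20.6 in B6xPWK, the highest, with B6xCAST and B6x129 (16.8) between them. Of the 21898, 687 (3.14%) were at 100 in all 5 liver sets and 2696 (12.3%) were under 2 in at least 1 of them.

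The 10 sites named for the highest score, ranked by mean covered length among those at 100 in all 5 livers, were of several kinds. The widest, of 11418 bp, lay on chromosome 18 between genes near Alpk2, and its liver hotspots covered 9455 bp on average. A site of 4897 bp (chr7:48840876-48845772) lay at a start of Csrp3, a muscle LIM protein gene. A site of 4540 bp (chr1:172696631-172701170) lay at a start of Crp, which encodes C-reactive protein, an acute-phase protein secreted by the liver. Cyp2c39 (chr19:39508521-39511894), a cytochrome P450 gene, and Abcg8 (chr17:84681656-84684667), part of the sterol exporter of the bile canaliculus, had such a site at their start. The remaining 5 were far from starts. They lay in an intron of Rbfox1 (chr16:6364850-6367908), in an intron of Mcc on chromosome 18, and between genes at 143879 bp from the nearest start of Rybp, 162971 bp from that of Ppp1r3b and 170539 bp from that of Kit (chr5:75744050-75746938). Only the sites at Crp and near Rybp had a mESC DNase-seq hotspot, and none of the 10 had a CTCF hotspot.

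Among the 587 liver-only sites within 1 kb of a start, 27 were at the ceiling in all 5 livers. They included sites within that distance of starts of Abcb11 (the bile salt export pump), F11 (coagulation factor XI), Ambp (a plasma protein precursor), Serpina1c (an α1-antitrypsin gene), Hamp (hepcidin, the iron hormone), Tfr2 (a transferrin receptor that senses iron), Ces2a (a carboxylesterase), Cyp2d10 (a P450 enzyme) and Gata4 (a transcription factor), picked from the 27 after their names were seen.

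Some liver-only sites lay close together. When sites no more than 20 kb apart were joined, a rule chosen after seeing the data, the 21898 formed 13886 chains. Of these, 9404 were of 1 site, 401 had at least 5 sites and 18 at least 10. Chains of 5 or more held 2526 of the sites. Chains were not counted for other classes of sites. The longest run of sites, 20 within 162.1 kb (chr7:26841220-27003336), spanned Cyp2a5 and Cyp2a22, and 17 lay in 61.4 kb at Cyp2a4 (chr7:26295896-26357305). A chain of 18 sites covered Gtf2e1, Rabl3 and Hgd, the last of which encodes an enzyme of tyrosine breakdown. A chain of 17 in 98.8 kb (chr1:190111146-190209996) was at Prox1, a hepatocyte transcription factor, where 25.4% of all 67 sites were liver-only. Serpina1c had 15 of 30 sites in 24.3 kb and Serpina1b 12 of 23 in 27.7 kb. By chromosome, the liver-only share of sites ran from 2.75% on chromosome 17 to 3.96% on chromosome 19.

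Each protein-coding gene was then described by the base pairs of hotspot in its body and the 10 kb on either side, here called covered length, scaled to the same total in every set. Liver was compared with the mean of the other 3 tissues by limma on log2(covered length + 300 bp) with tissue and hybrid as terms. A gene was called at an adjusted p below 0.05 and a log2 difference of at least 1. Of 18255 genes tested, 1555 (8.52%) had more covered length in liver and 1093 (5.99%) had less. Higher calls did not outnumber lower ones against any tissue alone. They were 1210 higher and 1444 lower against kidney, 1648 and 1701 against lung, and 2934 and 2946 against B cells. In 1471 genes (8.06%) all 5 liver sets were above the other 15 and in 1232 (6.75%) all were below, and 1068 of the genes called higher and 518 of those called lower were among these. Of the 1555 genes, 1222 had a liver-only site in their region, where 44.5% of all genes tested had one. Liver-only sites are part of the covered length itself, so this overlap is built in and is a description only. The number of genes with a liver-only site within 1 kb of a start was 543 of 20807 annotated (2.61%). The scaling sets the zero of these differences. The median over all genes tested was -0.14 with it and 0.39 without it, and higher calls made up 58.7% of all calls with scaling, 93.0% without and 46.6% when each set was held to its 75000 highest-scoring hotspots. Neighbouring genes share flanks, and regions such as those of Apoa1 and Apoc3 count the same hotspots in part.

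**Figure D3:**
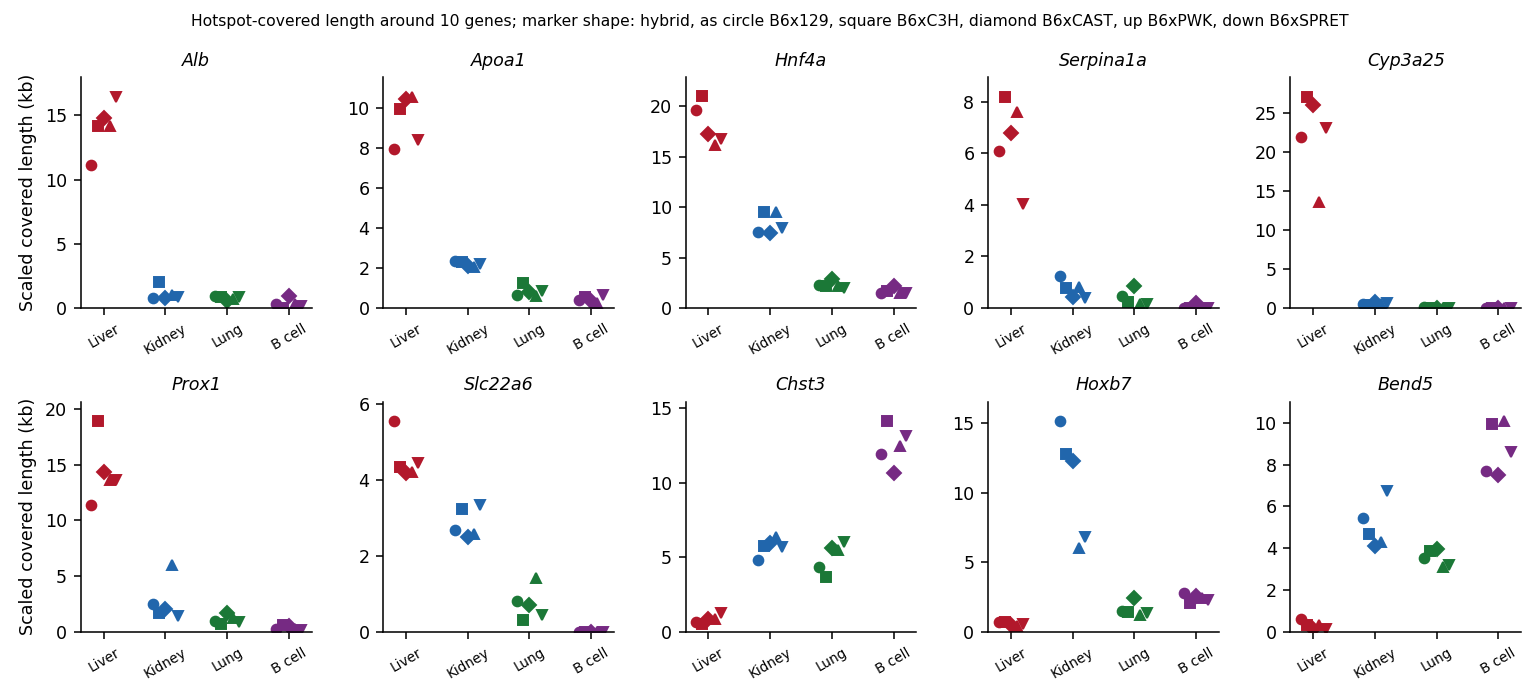
Scaled covered length (kb, linear axis) of 10 named genes in each of the 20 sets, with 1 point per set, colours by tissue and marker shapes by hybrid. For Alb, Apoa1, Hnf4a, Serpina1a, Cyp3a25, Prox1 and Slc22a6 the 5 liver points lie above all others, and for Chst3, Hoxb7 and Bend5 they lie below.

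The 4 markers of liver were all higher in it. Alb (ENSMUSG00000029368, chr5:90460897-90476602) had 11180, 14210, 14790, 14220 and 16450 bp in the livers of B6x129, B6xC3H, B6xCAST, B6xPWK and B6xSPRET, the order used for all genes here. Kidney had 771.8 to 2016, lung 537.3 to 964.4 and B cells 0 to 919.8. No other set came near the lowest liver, and the log2 difference was 3.93 ± 0.23 (SE, limma adjusted p = 3.89e-11). Its 3 liver-only sites lay 3494 bp before the start (chr5:90457109-90457696), with scores of 100, 82.6, 100, 100 and 100, and in the stretch between Alb and the fetal α-fetoprotein gene Afp. The site nearest Afp (chr5:90485478-90486350) scored 100 in 4 livers and 54.6 in B6xSPRET.

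Apoa1 (ENSMUSG00000032083, chr9:46228580-46230466), the main protein of high-density lipoprotein, had 7946, 9946, 10420, 10560 and 8373 bp in liver, 2052 to 2349 in kidney and no more than 1229 in lung and B cells. Its log2 difference was 2.94 ± 0.12 (adjusted p = 5.01e-13). The 1 liver-only site in its region (chr9:46238711-46239276) lay nearer to Apoa4 and scored from 5.40 in B6xSPRET to 92.0 in B6x129.

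Hnf4a (ENSMUSG00000017950, chr2:163506808-163572910) had 19580, 20990, 17230, 16110 and 16780 bp in liver. Kidney, which also uses this receptor, was next with 7457 to 9522, and lung and B cells had 1463 to 2860. The log2 difference was 2.38 ± 0.0935 from the 3 tissues together (adjusted p = 3.68e-13) and 1.09 from kidney alone (adjusted p = 2.3e-07). Of 62 sites in the region, 7 were liver-only, and that at the start (chr2:163506526-163507199) scored 67.2, 95.1, 100, 100 and 87.4. The intron sites were weaker, with lowest scores of 1.81 to 3.76.

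Serpina1a (ENSMUSG00000066366, chr12:103853589-103863562), an α1-antitrypsin gene, had 6075, 8179, 6789, 7593 and 4020 bp in liver and at most 1255 elsewhere, a log2 difference of 3.50 ± 0.195 (adjusted p = 2.01e-11). Its region held 9 liver-only sites of 76 to 667 bp. The gene has near-identical copies, Serpina1b to Serpina1e, whose shared stretches lose reads when only unique alignments are kept, so the split of openings among the copies is uncertain. The same holds for the Mug1, Sult2a8, Ugt2b, Cyp2a, Cyp2c and Cyp3a families.

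Most genes tested for proteins that the liver secretes were higher in it. Of 18 plasma carriers and transport proteins tested, 18 were called higher, with a median log2 difference of 2.29 where the median of all genes was -0.14. Ahsg (fetuin-A) had 11910 to 16910 bp in liver and at most 3994 elsewhere (log2 difference 4.53 ± 0.332). Ttr (transthyretin, 9606 to 14140 bp, 4.39 ± 0.21) and Rbp4 (retinol-binding protein, 9340 to 12420 bp, 4.00 ± 0.137) had no other set above 2061 bp. The list included Afp, the fetal counterpart of albumin, with a difference of 1.48, whose region holds openings that also lie near Alb.

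Of 21 coagulation and fibrinolysis genes, 20 were called higher, with a median of 2.56, and F12 was the exception at -0.27. F12 still had a liver-only site within 1 kb of a start. Fga, the fibrinogen α chain, had 12520, 14130, 14620, 14430 and 14590 bp in liver, 1503 to 2018 in kidney, at most 333.0 in lung and 0 in all B cell sets (4.50 ± 0.14, adjusted p = 2.14e-14). Hrg (histidine-rich glycoprotein) differed by 3.72 and Serpinc1 (antithrombin) by 3.51. In the complement list 14 of 18 were called, with a median of 1.81. C8a and C8b, subunits of the membrane attack complex, differed by 3.60 and 3.31, and C8g, whose product joins them in C8, by 0.24. C4b differed by 2.93, with 7653 bp in B6x129 and 3271 to 4202 in the other 4 livers.

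Apolipoproteins and lipoprotein assembly genes were more mixed, with 12 of 18 called higher, none lower, and a median of 1.67. Apob, the protein of very-low-density lipoprotein, had 14430 to 28200 bp in liver and at most 2925 elsewhere (3.73 ± 0.155). Apoc3 differed by 2.99. Among those not called were Lcat (an enzyme that esterifies cholesterol in plasma) at 0.36 and Pltp (phospholipid transfer protein) at -0.44.

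All 18 genes of bile acid synthesis and transport were called higher, with a median of 2.44. Cyp7a1, the rate-limiting enzyme of bile acid synthesis, had 6435, 9831, 7377, 3086 and 6127 bp in liver and at most 287.9 elsewhere (4.25 ± 0.183, adjusted p = 9.04e-13). Slco1b2, an uptake carrier, differed by 4.45 ± 0.198, and Slco1a1 by 3.22. At 7 of the 18 a liver-only site was within 1 kb of the start, namely Abcb11, Abcc2, Abcg5, Abcg8, Baat, Cyp7a1 and Slc27a5, where 2.61% of all annotated genes had one.

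In amino acid disposal, 17 of 19 genes were called higher, with a median of 2.31. Tat, which starts tyrosine breakdown, had 10230 to 14870 bp in liver and at most 927.1 elsewhere (4.23 ± 0.178). Tdo2, which opens the ring of tryptophan, had 12610, 17420, 9838, 3001 and 12850 bp in liver, lowest in B6xPWK and still above the 1000 bp of the highest other set. Cps1, the entry enzyme of the urea cycle, had 13160 to 23700 bp (3.38 ± 0.137), with 7 liver-only sites among 102. Asl, a urea cycle enzyme that other tissues use too, differed by 0.69 and Uroc1 by 0.97, short of the limit.

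Glucose and glycogen genes gave 10 of 13 higher, with a median of 1.94, and 0 of the 13 had a liver-only site at the start, while 8 had a site there that was open in all 20 sets. For the genes named from this list, kidney, the other organ that makes glucose, lay closest to liver. G6pc, which releases free glucose, had 8374, 7888, 9510, 14230 and 7743 bp in liver and 3140 to 4203 in kidney, a difference of 3.25 ± 0.208. Slc2a2, the glucose carrier of hepatocytes, had 10160 to 22280 bp in liver, 5562 to 6536 in kidney and at most 2139 in the other sets. Among those not called were Slc37a4, a carrier of glucose 6-phosphate, at 0.43 and Khk, ketohexokinase, at 0.62.

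Cytochrome P450 and conjugating enzymes, which clear drugs and steroids, included the largest differences of all. On the list 16 of 18 were called higher, with a median of 2.30. Cyp3a25, which led the whole comparison, had 21920, 27000, 25960, 13620 and 23000 bp in liver, 440.0 to 731.0 in kidney, no more than 88.5 in lung, and 0 in every B cell set (5.68 ± 0.132, adjusted p = 2.46e-16). Cyp3a11 had 15650, 18160, 2194, 14870 and 21240 bp in liver, so that B6xCAST had far less than the other 4 hybrids and yet more than every set of another tissue, whose highest was 417.1 (4.96 ± 0.324). Cyp2e1 differed by 4.10 and Cyp2c29 by 4.05. Among other genes with the largest differences were Dnase2b, a nuclease gene (4.77 ± 0.236), Sult2a8, a sulfotransferase gene (4.75 ± 0.194), and Mug1, which encodes a protease inhibitor of plasma (4.74 ± 0.275). Mug1 had 16670 and 20580 bp in B6x129 and B6xC3H and 3857 to 7033 in B6xCAST, B6xPWK and B6xSPRET, so its livers fell into separate ranges. Mat1a, which makes S-adenosylmethionine in the adult liver, had 18070 to 25240 bp in liver and at most 5015 elsewhere (4.59 ± 0.151), with no liver-only site in its region.

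Of 21 liver transcription factors, 16 were called higher, with a median of 1.55. Prox1 had 11360 to 18910 bp in liver and at most 5984 elsewhere (3.42 ± 0.207), with 13 liver-only sites among 59. Nr5a2, a nuclear receptor of bile acid and cholesterol genes, had 24040, 22380, 21840, 23120 and 23600 bp in liver and at most 5214 elsewhere (2.94 ± 0.266), with 16 liver-only sites among 88. Onecut2 differed by 3.19 ± 0.209. Foxa2 differed by 2.64, Onecut1 by 2.17 and Cebpa by 1.34. Among those not called were Cebpb at 0.65, Nr2f6 at 0.27 and Xbp1 at 0.19.

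**Figure D4:**
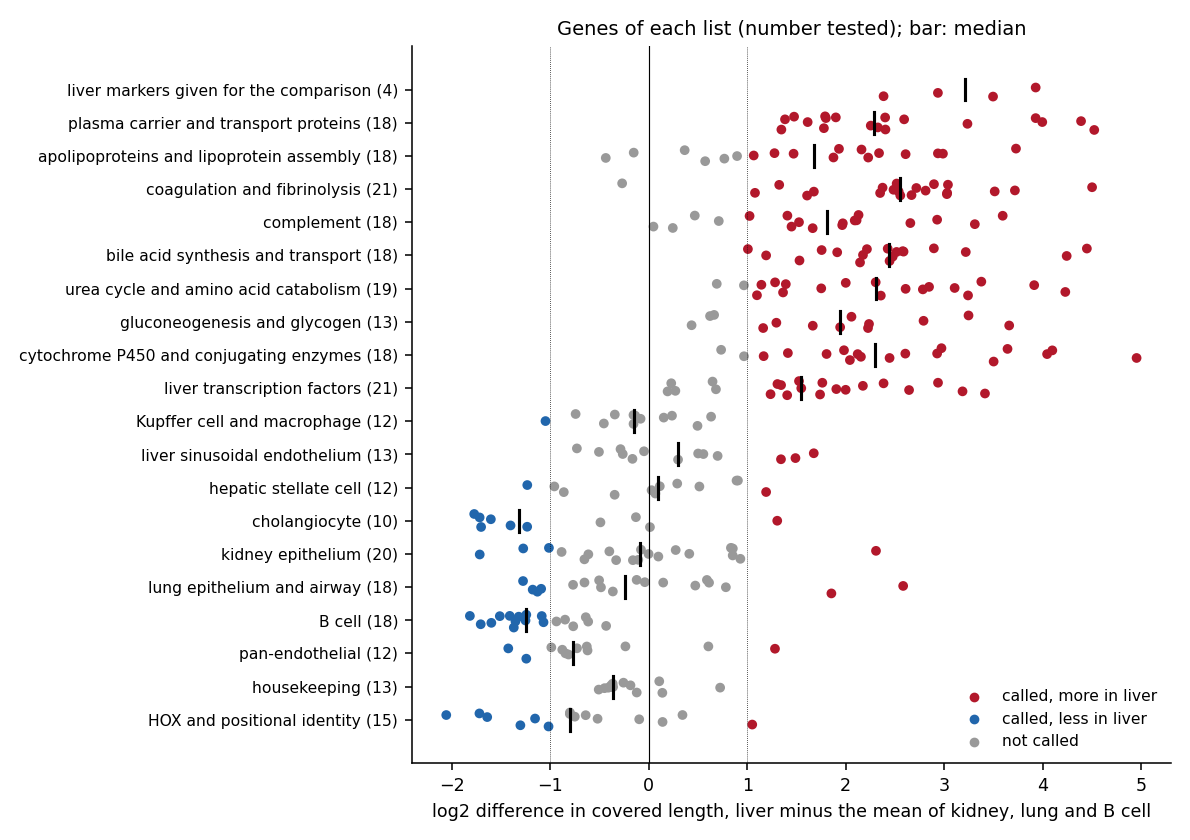
Log2 difference in scaled covered length, liver minus the mean of the other 3 tissues, for the genes of each list, with 1 point per gene, red or blue where it was called higher or lower, a bar at the median and dotted lines at the limits of 1 and -1. The lists of hepatocyte functions have medians from 1.55 to 2.56, and those of cholangiocyte and B cell genes lie at -1.32 and -1.25.

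The lists of the liver's other cells gave another picture. Over all genes tested, 8.52% were called higher and 5.99% lower, so a single call in these short lists is close to that share. Of 13 sinusoidal endothelium genes, 3 were called higher, Stab2 (a scavenger receptor, 1.49 ± 0.236), Gata4 (1.68 ± 0.0892) and Oit3 (1.34 ± 0.127), and the median was 0.30. Oit3 had 3116 to 3944 bp in liver and 2635 to 3235 in lung, which overlapped, and differed by 0.41 from kidney, 0.24 from lung (limma, adjusted p = 0.191) and 3.38 from B cells. Lyve1, Clec4g and Stab1, defining genes of these cells, differed by 0.30, -0.51 and -0.29. Among 12 Kupffer cell and macrophage genes none was called higher and Cd5l, a macrophage gene, was called lower (-1.05 ± 0.174), though Cd5l and Clec4f, a Kupffer cell lectin gene that was not tested, each had a liver-only site within 1 kb of a start. For Cd5l the liver sets had 219.1 to 1151 bp and kidney 141.1 to 510.5, while B cells had 6646 to 10020, and the difference was 0.64 from kidney, -0.69 from lung and -3.10 from B cells. The summed covered length of that list was 18490 to 25210 bp for liver, 20140 to 21870 for kidney, 21830 to 26990 for lung and 30760 to 43820 for B cells. Stellate cell genes gave 1 call in each direction among 12, Hand2 at 1.19 and Ngfr at -1.23. Of 10 cholangiocyte genes, 6 were called lower and 1, Sox9, higher, with 2619 to 3122 bp in liver and 1424 to 4253 in kidney. Krt7, a keratin of ducts, had 202.2, 101.4, 101.7, 117.7 and 109.8 bp in liver, 1842 to 3460 in kidney, 2875 to 3918 in lung and 0 to 214.0 in B cells (-1.77 ± 0.129). Epcam (-1.70) and Muc1 (-1.72), both of epithelia, followed.

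Each list of another tissue's markers summed to less covered length in liver than in that tissue, though few of the kidney and lung genes were called. B cell genes gave 12 of 18 lower and 0 higher, with summed lengths of 33330 to 42470 bp in liver and 240700 to 277600 in B cells. Kidney epithelium genes summed to 49820 to 52950 bp in liver and 93360 to 130700 in kidney, and lung genes to 52240 to 60640 in liver and 71370 to 108200 in lung. Pou2af1 and Spib, B cell regulators, differed by -1.82 and -1.71. Of the 20 kidney genes 3 were called lower and 1 higher (5%), where all genes tested gave 5.99% lower and 8.52% higher. That 1 was Slc22a6, an organic anion carrier of the kidney, with 4187 to 5557 bp in liver and 2502 to 3337 in kidney (2.31 ± 0.159), and 3 liver-only sites in its region. Of the 18 lung genes 4 were called lower and 2 higher. Sftpa1, a surfactant gene, differed by 2.58, but its region overlaps that of Mat1a, and with 2 kb on either side in place of 10 kb the difference was -1.05. Slc34a2, a phosphate carrier of alveolar cells, had 5169 to 6683 bp in liver and 1402 to 17150 in lung, which overlapped (1.85 ± 0.324). Pan-endothelial genes gave 2 of 12 lower (Emcn and Cdh5) and 1 higher (Tie1, 1.28), the latter 8.33% of the list and near the share of all genes. None of 13 housekeeping genes was called, with a median of -0.36. All 13 housekeeping genes had a site open in all 20 sets within 1 kb of a start, and Rplp0 also had a liver-only site within that distance.

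The genes with the most liver-only sites were long. Gm20388, a readthrough model of 4435 kb that spans many genes, had 77 of its 2130 sites liver-only and a log2 difference of 0.01 ± 0.0524, which did not pass the test (adjusted p = 0.838). Sox5, which encodes a transcription factor, had 33 of 359 (1.22 ± 0.0854), Ptprg and Ptprd, receptor phosphatase genes, 27 and 26 (1.77 ± 0.134 for Ptprg), and Thrb, the thyroid hormone receptor β that regulates lipid genes in liver, 26 of 180, or 6.54 per 100 kb of region (1.28 ± 0.0712). Tenm3, which encodes a teneurin, had 24 of 197 and 24450 to 32960 bp in liver against at most 14210 elsewhere (2.55 ± 0.189). Ptprg differed from kidney by 0.20 (adjusted p = 0.33) and from B cells by 4.58, and 9 kidney and lung sites that liver lacked lay in the same region. Zbtb20 and Foxn3 each had 24 liver-only sites and differences of 0.82 and 0.51, under the limit of 1.

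**Figure D5:**
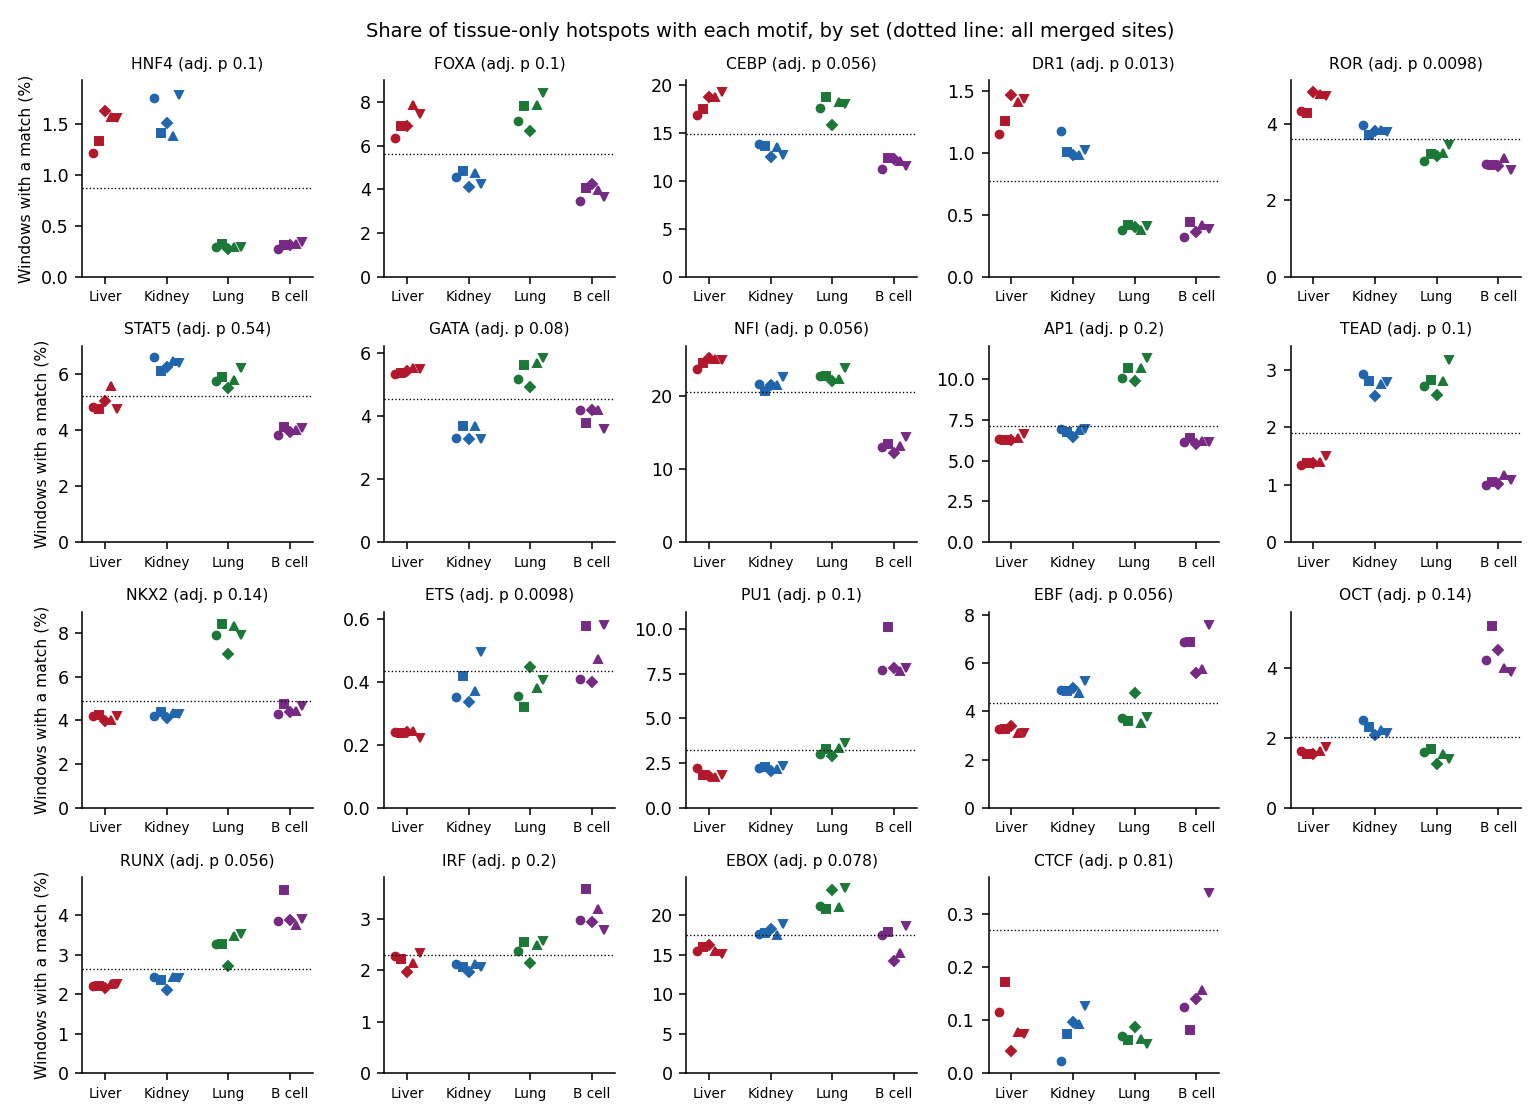
Percentage of tissue-only hotspots whose central 300 bases hold each of 19 of the motifs searched, with 1 point per set, colours by tissue and a dotted line at the share of all merged sites. The liver sets hold ROR letters in 4.30 to 4.86% and ETS letters in 0.221 to 0.242%, outside the range of the other 15 sets in both cases.

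The sequences under liver's tissue-only hotspots were searched for 20 motifs in their central 300 bases on both strands. The shares were compared by the exact within-hybrid permutation test, two-sided, with p adjusted over the 20. The sets of a tissue share many sites and all were read on the mm10 sequence. They are therefore not fully independent, and the SD and p below rest in part on the same sequences. For 3 of the 20 (15%) the liver share differed, DR1 and ROR being higher and ETS lower. ROR letters (TAGGTCA) were in 4.61% ± 0.265 of liver windows (SD, n = 5), 3.84% of kidney, 3.23% of lung and 2.95% of B cell windows, with every liver set above every other (permutation p = 0.000977, adjusted p = 0.00977). They were in 5.46% of the liver-only sites, 3.61% of all sites and 2.61% of the 32851 RefSeq promoters of build GRCm38.p6. DR1 letters (AGGTCAAAG) were in 1.35% ± 0.134 of liver windows, 1.03% of kidney, 0.397% of lung and 0.383% of B cell windows (permutation p = 0.00195, adjusted p = 0.013), and the lowest liver set, at 1.15%, lay within the kidney range of 0.980 to 1.18%. They were in 1.90% of liver-only sites, 0.773% of all sites and 0.426% of promoters. The DR1 call was lost, at an adjusted p of 0.0521, when B6xC3H, B6xCAST, B6xPWK or B6xSPRET was left out. ETS letters (CCGGAAGT) were in 0.237% ± 0.00875 of liver windows and 0.421% of the others, with every liver set below every other (permutation p = 0.000977, adjusted p = 0.00977). The call was lost, at an adjusted p of 0.104, with the 10000 highest-scoring tissue-only hotspots of each set. ETS letters were in 0.192% of liver-only sites, 0.433% of all sites and 3.89% of promoters.

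The motifs of the best-known liver factors were shared with other tissues. HNF4 letters (CAAAGTCCA) were in 1.46% of liver windows and 1.57% of kidney windows, against 0.293% in lung and 0.307% in B cells, and liver against the rest did not pass the test (permutation, adjusted p = 0.104). They were in 2.00% of liver-only sites and 0.869% of all sites. FOXA letters (TGTTTAC) were in 7.09% of liver windows and 7.57% of lung windows, against 4.51% in kidney and 3.88% in B cells. C/EBP letters (TTGCNNAA) were in 18.2% of liver, 17.7% of lung, 13.2% of kidney and 11.9% of B cell windows (permutation, adjusted p = 0.0558), and with the 10000 highest-scoring tissue-only hotspots of each set the difference was 8.55 percentage points and passed the test (adjusted p = 0.00651). EBF letters (CCCNNGGGA) were lower in every liver set than in every other, 3.22% against 5.11%, with an adjusted permutation p of 0.0558.

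Of the 29106 sites open in all 15 other sets, 27339 were open in all 5 livers, 744 in 4, 392 in 3, 251 in 2, 217 in 1 and 163 in none. B cells were the sets with the fewest hotspots. Without regard to B cells, liver lacked 3369 sites that were open in all 5 kidney and all 5 lung sets, and 85.0% of these had no B cell hotspot in any hybrid. By the rule that gave 163 for liver, with all 15 sets of the other tissues open, kidney lacked 316 sites, lung 59 and B cells 8329. Liver shared 8138 sites with kidney alone, 2149 with lung alone and 67 with B cells alone.

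The 163 liver-lacking sites had a median width of 1003 bp, and 16 of them (9.82%) were within 1 kb of a start. Sites that kidney, lung or B cells lacked by the same rule had median widths of 983, 1099 and 928 bp. Of these, 9.18%, 6.78% and 9.16% were near a start. Their shares with a mESC DNase-seq hotspot were 9.81%, 11.9% and 22.1%, and with a CTCF hotspot 4.75%, 6.78% and 12.05%. In the 163 liver-lacking sites, the mESC DNase-seq set had a hotspot in 38, or 23.3% (Wilson 95% interval 17.5 to 30.4%), and CTCF in 15, or 9.20%. The 5 named for the highest lowest score over the 15 sets lay in an intron of Capzb (chr4:139212012-139212689), which encodes an actin capping subunit, near Clmn (chr12:104904088-104904743), near Sdhb (chr4:140947488-140949429), near Btg1 (chr10:96697434-96698381), and at the start of Tmod3 (chr9:75541383-75542131), which encodes a tropomodulin. The Capzb site scored 11.6 to 42.6 in the kidney sets, 15.6 to 46.2 in those of lung and 8.47 to 53.4 in those of B cells, and no liver set had a hotspot there. Other liver-lacking sites, listed after their names were seen, lay within 1 kb of starts of Blnk (a B cell adaptor), Ccr1 (a chemokine receptor), Eya1 (a regulator of kidney development) and Hdac9 (a histone deacetylase).

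Of the genes named for the lowest differences, Bend5, which encodes a BEN domain protein, had 617.9, 324.9, 154.3, 338.1 and 132.2 bp in liver, 4118 to 6734 in kidney, 3086 to 3985 in lung and 7498 to 10090 in B cells (-3.26 ± 0.141, adjusted p = 9.86e-13). In Chst3, a chondroitin sulfotransferase gene, the liver sets had 559.5 to 1309 bp and the others at least 3715 (-2.69 ± 0.107). St8sia6, a sialyltransferase gene, differed by -2.89 ± 0.141. The B cell sets were the highest in Hvcn1, Cytip and Begain, and Hvcn1 (a proton channel of B cells) had 784.5 to 1601 bp in liver, 2773 to 3302 in kidney, 3765 to 5714 in lung and 16970 to 32530 in B cells.

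Of 15 HOX and related genes, which mark position along the body, 6 were called lower and 1 higher, with a median of -0.80. The 1 higher call, 6.67% of the list, was near the 8.52% of all genes tested. Hoxb7 had 748.2, 701.6, 509.5, 470.8 and 590.2 bp in liver, 6004 to 15170 in kidney, 1221 to 2469 in lung and 2069 to 2837 in B cells (-2.06 ± 0.146). Hoxa9 had 876.7 to 1008 bp in liver and 13000 to 20920 in kidney, with lung at 910.9 to 1627, which overlapped liver (-1.72 ± 0.155). The difference was -3.76 from kidney and -0.37 from lung. Meis2, a cofactor of HOX proteins, was the 1 called higher (1.05 ± 0.215), with 8790 to 14060 bp in liver and 11600 to 21320 in kidney. Without scaling, Cd5l, Ngfr and Cdh5 of the genes called lower above kept their direction but fell short of the limit of 1, as did Slc12a1 and Aqp2 of the kidney list, Napsa, Cldn18 and Scgb3a2 of the lung list and Ebf1 of the B cell list, which were also called lower.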

How the data were processed

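DNase-seq hotspots of 20 hybrid and tissue combinations, with 1 DNase-seq and 1 CTCF ChIP-seq set of mESCs, were used. The authors mapped reads with BWA to mm10 and the strain's own genome, kept unique alignments, pooled the libraries of each combination, and ran hotspot2 with an FDR of 5%. The deposited −log10 FDR of each hotspot, with a ceiling of 100, served only to rank and filter. Read totals of the sets were not used, and the width and number of hotspots limit the precision. Groups were taken from the strain and tissue labels. RNA-seq tables were not used. A few genes and 1 motif that the rules below pick are not reported here.

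Sites merged hotspots overlapping by at least 1 bp. Covered length per protein-coding gene of GENCODE vM21 with 10 kb on either side was scaled to the mean total per set, and genes with at least 300 bp in at least 5 sets were fitted by limma 3.58.1 (R 4.3.3) on log2(covered length + 300), with tissue and hybrid as terms and Benjamini-Hochberg adjustment over all genes tested. Calls needed an adjusted p below 0.05 and a log2 difference of at least 1. Libraries were pooled within each set, so no p-value measures the spread between libraries. The limma p rests on how far the tissue differences varied from hybrid to hybrid, after the hybrid term. The permutation p rests on placing the liver label on other tissues of the same hybrid. The scripts were tested on simulated data. The tests between tissues used Python 3.11.15, SciPy 1.17.1 and exact permutation within hybrids of tissue-only hotspots.

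Genes named were the 4 markers, the 10 with the most liver-only sites, the 10 with the largest and the 10 with the lowest log2 difference among called genes with at least 2000 bp in liver or in the other sets, and from each list up to 3 called members with the largest difference with every called member of the opposite direction. Values of further list members, named to describe a list, were chosen after they were seen. Sites named were the 10 liver-only and the 5 liver-lacking ones with the highest lowest score, ties by mean covered length. Members and lists were chosen with earlier results of these data known. Alternatives were another pseudocount, filter, flank, scaling and measure, a stricter FDR, an equal number of hotspots per set, and each hybrid left out.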

Additional observations from a re-analysis of the deposited data

Results flagged for a closer look

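In a group of 5 samples, a value was singled out when its gap to the nearest of the others exceeded 0.71 of the range of the group. Among 124 groups of liver sets 13 were, where chance alone marks about 1 in 20.

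The largest gap was in Cldn18, a tight junction gene of lung and stomach, whose covered length was 3191 bp in the B6xPWK liver and 102.1 to 164.3 bp in the other 4 livers. The other genes with such a value were Fga with 12520 bp in B6x129 (the lowest, against 14130 to 14620), C4b with 7653 bp in B6x129, Krt7 with 202.2 bp in B6x129, Slc22a6 with 5557 bp in B6x129, G6pc with 14230 bp in B6xPWK and Tie1 with 2640 bp in B6xPWK. All but Fga were the highest of the 5 livers. The B6x129 and B6xPWK liver sets had the most hotspots, and the part this had in these values was not tested.

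Liver-lacking sites chosen on the other 4 hybrids were found in the B6x129 liver at 54.99%, against 2.35 to 6.81% for the other hybrids. In the B6xSPRET liver, 8.969% of hotspots were at the score's ceiling, the lowest of the 5, which reached 14.3% in B6xPWK. Its tissue-only windows held AP1 letters in 6.655% (the others at most 6.37%), TEAD letters in 1.505% and ETS letters in 0.2212%. PU.1 letters were in 2.204% of those of the B6x129 liver.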

How the results depend on the processing

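The number of liver-only sites was 21898, and 12152 with 75000 hotspots per set and 61663 runs of base pairs when these were counted in place of sites. Liver-lacking sites, 163, became 441 and 325 under the same settings, 3369 without regard to B cells, and 170 to 371 when a hybrid was left out (371 without B6x129, 305 without B6xC3H).

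Genes called higher, 1555, numbered 1003 with a pseudocount of 1000 bp and 3611 without scaling. Genes called lower, 1093, numbered 491 with that pseudocount, 651 for the number of hotspots in place of their length, 272 without scaling and 2013 with 75000 hotspots per set. Fits without the hybrid as a replicate block called 1555 and 1093 genes, and fits leaving out a hybrid 1485 to 1533 and 1072 to 1251. Single genes changed sign as follows. Sftpa1 was at -1.05 and Cd5l at 0.017 with 2 kb flanks, Hand2 at -0.0895 with 75000 hotspots per set, and Gm20388, which was not called, at -0.0705 for the number of hotspots and between -0.0029 and 0.03 with a hybrid left out.

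Of 20 motifs 3 differed, and 5 did over all hotspots and 9 with permutation across hybrids. The difference of 1 motif that was not called turned to 0.261 percentage points over all hotspots, and that of CTCF letters ran from -0.0378 to 0.0119 with a hybrid left out. Neither was called in any setting in which it was tried. With the 10000 highest-scoring hotspots the differences were 0.357 points for the share near starts, -0.00467 for the share in genes and -0.941 for CTCF hotspots, and with starts within 2.5 kb the first was 0.229. CTCF hotspots ran from -0.582 to 0.688 points with a hybrid left out. The causes were not tested. Read depth, which was not used here, limits every count of sites in all or none of the sets, and a hotspot missed at low depth cannot be told from closed chromatin.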
